A study of Mus musculus with 6 samples.

Results

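The genes described here are 33 chemokines and cytokines that are known from the inflamed and healing heart after infarction: ligands of the CC, CXC and CX3C chemokine families, interleukins, tumour necrosis factor and growth factors of the myeloid lineage. They were taken by symbol, and all 33 were found among the 17524 genes of the deposited table. Of these, 23 had enough counts to be tested, among 13565 tested genes in all, and 10 did not (Ccl3, Ccl4, Ccl19, Cxcl2, Cxcl5, Cxcl13, Il10, Il11, Tnf and Osm).

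RNA sequencing was carried out on 6 libraries of mouse heart, and it served to ask what transcription factor EB (TFEB), a regulator of lysosome and autophagy genes, does in the infarcted heart. The 3 TFEB overexpression libraries, numbered 34, 41 and 43, came from mice labelled R26-LSL-TFEB[+/+], in which Cre recombinase turns on TFEB from the Rosa26 locus. The series pairs this allele with Acta2-cre, whose promoter (that of smooth muscle actin) is active in smooth muscle and in myofibroblasts. The 3 control libraries, numbered 35, 36 and 37, are labelled WT, and in both groups the left anterior descending branch of the coronary artery had been ligated. The labels do not state whether the controls carried the allele or Cre, how long after ligation the hearts were taken, or the age and sex of the mice. They do not tie the libraries to separate animals either, so the p-values set group differences against the spread between these libraries, which may be technical.

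After the coronary artery is tied off, dying cardiomyocytes and resident cells release chemokines, small secreted proteins that draw leukocytes out of the blood along their gradients. Neutrophils follow ligands of Cxcr2 and monocytes follow ligands of Ccr2, and cytokines such as interleukin-1 beta, interleukin-6 and tumour necrosis factor amplify the response before it gives way to scar formation. Other members have steady roles in the uninjured heart: Cxcl12 keeps Cxcr4-bearing cells in place and Csf1 keeps macrophages alive.

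CPM stands for counts of a gene relative to the normalised library total. The targeted gene, Tfeb, stood at 45.4, 45.3 and 39.4 CPM in TFEB overexpression libraries 34, 41 and 43, against 34.4, 33.8 and 41.4 CPM in control libraries 35, 36 and 37. The groups overlapped, with a log2 fold change of 0.25 ± 0.12 (SE) and an adjusted p of 1.00 by edgeR, and the labels do not state whether this entry also counts transcripts from the Rosa26 allele. The labels name heart as the tissue and also speak of primary fibroblasts, while genes of heart muscle dominated. The 10 cardiomyocyte markers summed to 61040, 87910 and 109900 CPM in TFEB overexpression libraries 34, 41 and 43, against 77890, 73950 and 101100 CPM in control libraries 35, 36 and 37. The libraries held between 12942480 and 14969287 estimated counts.

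No chemokine or cytokine passed the test. With edgeR's quasi-likelihood test and Benjamini-Hochberg adjustment over all genes, 0 of 23 members and 0.0% of all tested genes had an adjusted p under 0.05. At an unadjusted p under 0.05 there were 0 of 23 members, against 1.21% of all tested genes. None of the 23 members had groups that did not overlap, whereas 4.75% of all tested genes did. DESeq2 called 0 of 23 members and 0.00737% of all tested genes, which is 1 gene. The fitted log2 fold change was above 0 for 14 of 23 members, or 60.9%, and for 51.0% of all tested genes, and its median was 0.14 over the members and 0.003 over all genes. Without TFEB overexpression library 34 the count was 9 of 23 and the median -0.10, and without TFEB overexpression library 41 the count was 11 and the median -0.03.

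**Figure D1:**
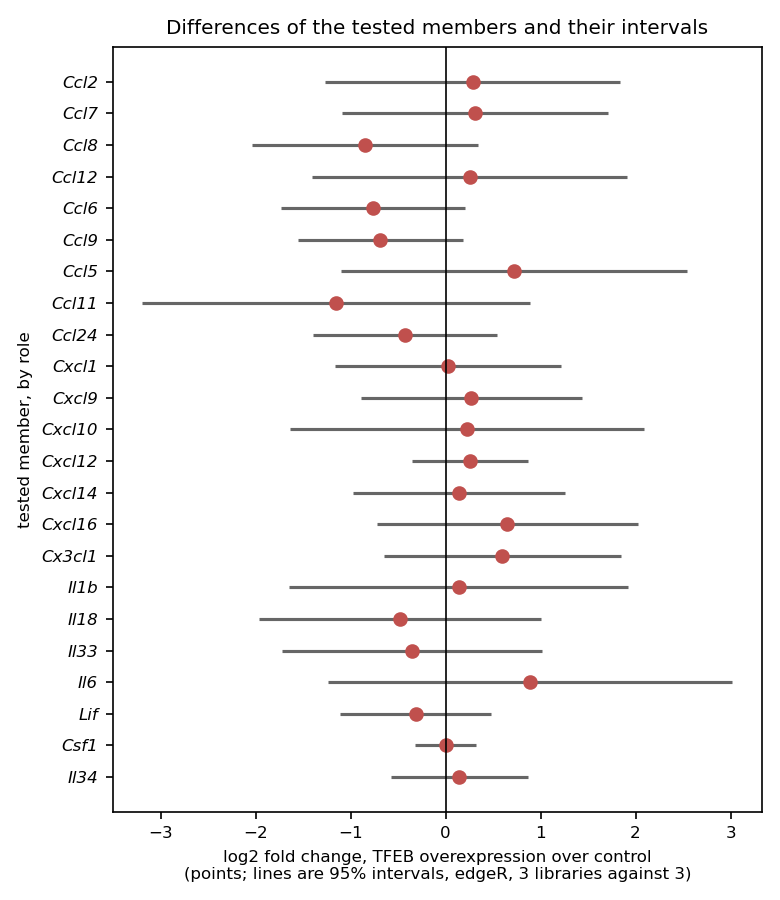
Log2 fold change of TFEB overexpression over control for the 23 tested members, with 95% intervals from edgeR (3 libraries against 3), ordered by role from CC chemokines at the top to growth factors at the bottom. Every interval crosses 0, and those of Csf1, Cxcl12 and Il34 are the narrowest.

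The width of these intervals sets what could have been seen. Only for Csf1 did the 95% interval of the ratio lie within 1.5-fold in either direction, and for Csf1, Cxcl12 and Il34 it lay within 2-fold. For 17 of the 23 members it lay within 4-fold. For the other members the interval reached past 4-fold in 1 direction, as for Il6, with a ratio of 1.86 and an interval of 0.425 to 8.12, and for Ccl8, with a ratio of 0.555 and an interval of 0.244 to 1.26. In a whole-tissue library, fewer cells of a type and less RNA per cell cannot be told apart.

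The members differed far more from each other than between the groups. On the TPM scale, which is set per transcript length, Cxcl12 was the highest member with means of 113 TPM in TFEB overexpression and 93.6 TPM in control. Cxcl16 followed with 43.5 TPM in TFEB overexpression and 26.9 TPM in control, and Csf1 with 34.4 TPM in TFEB overexpression and 33.6 TPM in control. Ccl6 averaged 24.1 TPM in TFEB overexpression and 41.2 TPM in control, and Ccl8 averaged 17.5 TPM in TFEB overexpression and 31.5 TPM in control. The classical acute cytokines were well below these. Il1b averaged 3.21 TPM in TFEB overexpression and 2.96 TPM in control, and Il6 averaged 1.78 TPM in TFEB overexpression and 0.963 TPM in control. Tnf averaged 0.947 TPM in TFEB overexpression and 0.337 TPM in control, and Il10 was listed at 0 TPM in all libraries except control 36. The order of Cxcl16, Csf1 and Ccl6 was not the same in every library: Cxcl16 had 81.0 TPM in TFEB overexpression library 34 and 13.7 TPM in TFEB overexpression library 43, on either side of Csf1 at 35.2 and 31.1 TPM in the same libraries.

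Sequences upstream of the genes are shown for the members whose promoter window holds the letters of an NF-kB site, because this factor is the best known driver of acute inflammatory genes and because these members had very unlike levels. A window runs from 250 bases before the start site to 50 bases from it (RefSeq, build GRCm38.p6), and 22 members had at least 1 window, 24 windows in all. The letters GGGA and TTCC, with any 2 bases between them and read on both strands, occurred in 5 of the 24 windows and in 1.47% of 32851 windows of all genes. The windows are printed 5′ to 3′ on the strand of the gene, with the match in capitals.
Cxcl1, chr5:90890995-90891294, forward strand: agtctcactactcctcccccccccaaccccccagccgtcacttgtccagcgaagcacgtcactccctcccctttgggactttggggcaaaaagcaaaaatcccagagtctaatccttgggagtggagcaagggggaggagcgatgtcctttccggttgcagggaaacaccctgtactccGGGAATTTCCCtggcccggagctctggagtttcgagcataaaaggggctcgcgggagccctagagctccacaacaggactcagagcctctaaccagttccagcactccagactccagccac
Cxcl2, chr5:90903649-90903948, forward strand: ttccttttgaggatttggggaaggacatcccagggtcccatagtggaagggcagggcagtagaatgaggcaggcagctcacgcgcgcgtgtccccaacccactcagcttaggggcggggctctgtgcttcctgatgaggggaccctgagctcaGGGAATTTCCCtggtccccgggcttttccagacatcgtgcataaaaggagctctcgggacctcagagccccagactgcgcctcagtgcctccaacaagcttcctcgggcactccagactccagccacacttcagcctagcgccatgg
Cxcl10, chr5:92348840-92349139, reverse strand: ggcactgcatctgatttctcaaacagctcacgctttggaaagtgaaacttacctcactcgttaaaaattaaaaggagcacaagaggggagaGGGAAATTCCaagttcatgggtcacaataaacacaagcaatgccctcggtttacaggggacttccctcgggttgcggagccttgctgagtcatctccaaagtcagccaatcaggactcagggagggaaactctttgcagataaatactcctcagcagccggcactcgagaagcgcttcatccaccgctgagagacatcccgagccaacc
Il6, chr5:30012864-30013163, forward strand: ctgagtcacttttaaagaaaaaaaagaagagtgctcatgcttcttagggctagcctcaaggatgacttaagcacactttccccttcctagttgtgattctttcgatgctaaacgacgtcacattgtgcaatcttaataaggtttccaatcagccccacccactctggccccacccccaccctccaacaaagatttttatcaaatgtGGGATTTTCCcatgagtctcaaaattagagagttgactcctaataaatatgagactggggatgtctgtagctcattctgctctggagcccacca
Csf1, chr3:107760420-107760719, reverse strand: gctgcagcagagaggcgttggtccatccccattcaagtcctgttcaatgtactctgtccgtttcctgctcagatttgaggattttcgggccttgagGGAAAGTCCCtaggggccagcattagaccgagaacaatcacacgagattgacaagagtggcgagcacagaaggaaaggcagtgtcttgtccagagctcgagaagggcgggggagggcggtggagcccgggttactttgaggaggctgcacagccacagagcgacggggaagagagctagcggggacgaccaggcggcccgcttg
In Cxcl1 and Cxcl2 the motif matched on both strands in overlapping positions, at -71 to -61 and -97 to -87, counted from the start site as 0. The match lay at -44 to -35 in Il6, at -159 to -150 in Cxcl10 and at -154 to -145 in Csf1. A match describes the letters of the window and is not a measured binding site.

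The 5 genes with these letters did not share a pattern over the libraries. Csf1 was the steadiest of all members, while Il6 and Cxcl10 varied several-fold within each group and Cxcl1 and Cxcl2 had few counts. The interferon-response letters, TTTC, any 2 bases and TTTC, were found in 3 member windows (Ccl19, Cxcl10 and Cxcl14) and in 3.44% of all windows. The AP-1 letters TGANTCA were found in 6 member windows (Ccl9, Cxcl9, Cxcl10, Il6, Il11 and Lif) and in 7.81% of all windows. The letters CACGTG, the core of the element that TFEB binds, were in 0 of the 24 member windows and in 7.15% of all windows, which says only that they are not in these stretches. All motifs were read on both strands, and Cxcl10 and Il6 carried more than 1 kind.

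Ccl6 and Ccl9, rodent chemokines of macrophages that act on Ccr1, had the smallest p-values among the members. Ccl6 stood at 13.1, 23.2 and 14.9 CPM in TFEB overexpression libraries 34, 41 and 43, against 42.5, 29.6 and 14.9 CPM in control libraries 35, 36 and 37. Ccl9 stood at 12.8, 14.6 and 9.34 CPM in the same TFEB overexpression libraries, against 29.0, 19.0 and 11.1 CPM in the same control libraries. For both genes control libraries 35 and 36 lay above every TFEB overexpression library, and control library 37 lay among them. The log2 fold change was -0.77 ± 0.40 (SE) for Ccl6 and -0.69 ± 0.36 for Ccl9, with unadjusted p-values of 0.103 and 0.102 and adjusted p-values of 1.00 by edgeR. Without control library 35 the values were -0.38 and -0.30.

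Ccl8, another CC chemokine, had a similar order at lower counts. It stood at 2.55, 3.88 and 1.16 CPM in TFEB overexpression libraries 34, 41 and 43, against 5.23, 5.83 and 2.65 CPM in control libraries 35, 36 and 37. Again control library 37 lay inside the range of TFEB overexpression and the other controls lay above it. The log2 fold change was -0.85 ± 0.49 (SE), with an adjusted p of 1.00 by edgeR, and it was -0.51 without TFEB overexpression library 43.

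The eosinophil chemokines were low. Ccl11, eotaxin, stood at 0.0636, 0.806 and 0.909 CPM in TFEB overexpression libraries 34, 41 and 43, against 0.671, 0.913 and 2.33 CPM in control libraries 35, 36 and 37. TFEB overexpression library 34 held 1 count of Ccl11, and the other libraries held 10 to 30. Ccl24, eotaxin-2, a product of tissue macrophages, stood at 0.70, 1.54 and 1.82 CPM in TFEB overexpression, against 2.08, 1.76 and 1.56 CPM in control, with overlapping groups. Their log2 fold changes were -1.15 ± 0.85 and -0.42 ± 0.40 (SE), and that of Ccl11 was -0.45 without control library 37.

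The main monocyte attractants, ligands of Ccr2, did not separate the groups either. Ccl2 stood at 1.08, 5.05 and 1.405 CPM in TFEB overexpression libraries 34, 41 and 43, against 2.89, 1.404 and 1.87 CPM in control libraries 35, 36 and 37. The highest and the lowest value were both TFEB overexpression libraries, and the log2 fold change of 0.29 ± 0.64 (SE) was -0.71 without library 41. Ccl7 and Ccl12, which share the receptor, had log2 fold changes of 0.31 ± 0.58 and 0.25 ± 0.69. Ccl7 averaged 1.61 ± 0.932 CPM in TFEB overexpression and 1.29 ± 0.69 CPM in control, and Ccl12 averaged 1.24 ± 0.863 CPM in TFEB overexpression and 1.05 ± 0.448 CPM in control (SD, n = 3 each).

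These genes lie side by side on chromosome 11 (mm10), where 10 of the members form 2 clusters. One spans 82035577 to 82116799 with Ccl2, Ccl7, Ccl11, Ccl12 and Ccl8, and the other spans 83525778 to 83664683 with Ccl5, Ccl9, Ccl6, Ccl3 and Ccl4. The fitted values within a cluster were of mixed sign: in the first cluster the fitted values of Ccl2, Ccl7 and Ccl12 were above 0 and those of Ccl8 and Ccl11 below, and in the second cluster Ccl5 was above 0 and Ccl6 and Ccl9 below. The annotated ranges of Ccl3 and Ccl4 overlap, and the Ccl family holds close paralogues, so reads that fit more than 1 of them may have been divided by the authors' quantification.

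Ccl5, a T cell and macrophage chemokine, stood at 1.91, 0.952 and 0.248 CPM in TFEB overexpression libraries 34, 41 and 43, against 0.537, 1.05 and 0.311 CPM in control libraries 35, 36 and 37. Its counts were 30, 13 and 3 in TFEB overexpression and 8, 15 and 4 in control. TFEB overexpression held both the highest and the lowest library. The log2 fold change was 0.72 ± 0.76 (SE) with an adjusted p of 1.00 by edgeR, and it was -0.07 without library 34. Ccl3 and Ccl4, macrophage inflammatory proteins, had too few counts to be tested. Ccl3 had 19, 5 and 1 counts in TFEB overexpression libraries 34, 41 and 43, against 3, 2 and 0 in control libraries 35, 36 and 37. For Ccl4 the counts were 8, 4 and 1 in TFEB overexpression and 6, 8 and 0 in control. Ccl19, which draws Ccr7-bearing T cells and dendritic cells, had 7, 6 and 7 counts in TFEB overexpression and 14, 3 and 6 in control.

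**Figure D2:**
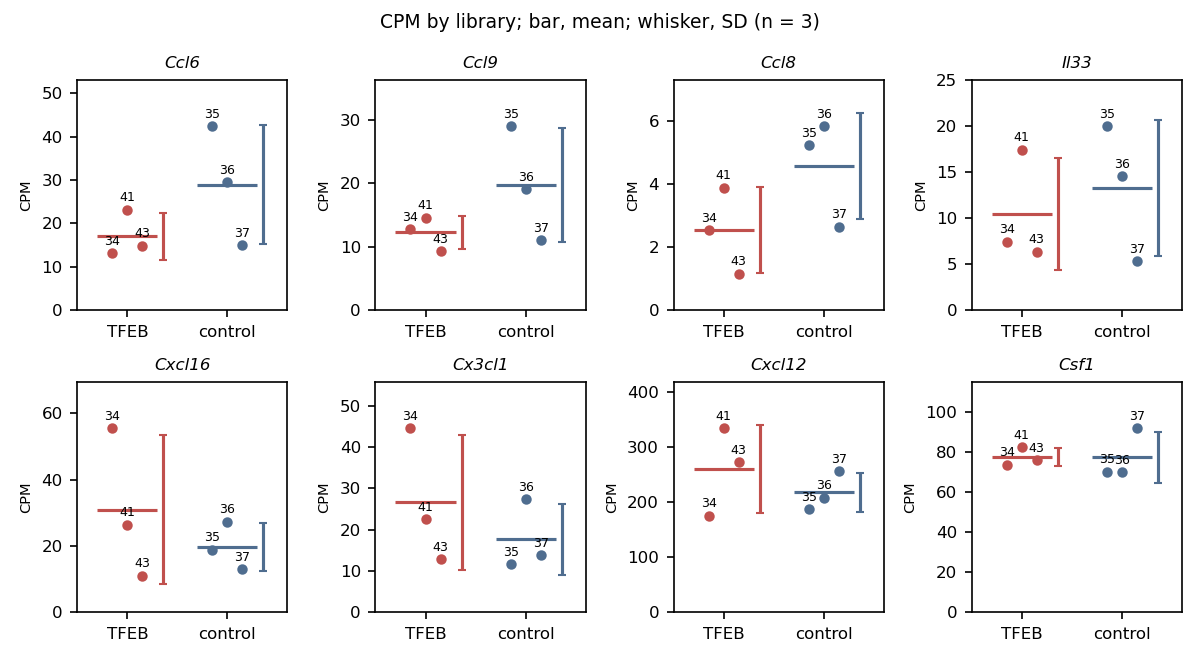
CPM of 8 members in each library (points, with library numbers), TFEB overexpression left and control right, each axis starting at 0. Horizontal bars are group means and whiskers the SD (n = 3); library 35 is the highest for Ccl6, Ccl9 and Il33 and library 34 for Cxcl16 and Cx3cl1, and the groups overlap in every panel.

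Both chemokines that are made as membrane-bound proteins, Cx3cl1 and Cxcl16, were highest in TFEB overexpression library 34. Cx3cl1, fractalkine, which holds Cx3cr1-bearing monocytes to endothelium, stood at 44.5, 22.6 and 12.8 CPM in TFEB overexpression libraries 34, 41 and 43, against 11.7, 27.5 and 13.9 CPM in control libraries 35, 36 and 37. Cxcl16, the ligand of Cxcr6 and a scavenger receptor, stood at 55.5, 26.4 and 11.1 CPM in TFEB overexpression and 18.9, 27.3 and 13.1 CPM in control. Libraries 41 and 43 of TFEB overexpression lay within the control range for Cx3cl1, and for Cxcl16 library 41 lay within it and library 43 below it. The log2 fold changes were 0.60 ± 0.52 and 0.65 ± 0.57 (SE), with adjusted p-values of 1.00 by edgeR, and without library 34 they were 0.0038 and -0.07. The same library also had the highest sum of the 18 macrophage and monocyte markers and of the 10 matrix markers, and the part of these in the values of Cx3cl1 and Cxcl16 was not tested.

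Cxcl12, the ligand of Cxcr4, stood at 176, 334 and 273 CPM in TFEB overexpression libraries 34, 41 and 43, against 188, 208 and 257 CPM in control libraries 35, 36 and 37. In CPM, TFEB overexpression libraries 41 and 43 were the highest of all and library 34 the lowest of all. The order differed on the TPM scale, at 94.9, 145.3 and 97.5 TPM in TFEB overexpression and 88.3, 99.0 and 93.4 TPM in control. The log2 fold change was 0.26 ± 0.25 (SE), with a ratio of 1.20, a 95% interval of 0.785 to 1.83 and an adjusted p of 1.00 by edgeR. Its receptor Cxcr4 averaged 18.2 ± 14.2 CPM in TFEB overexpression and 14.5 ± 8.27 CPM in control, and the scavenger receptor Ackr3, which also binds Cxcl12, averaged 58.9 ± 13.04 CPM in TFEB overexpression and 65.7 ± 2.24 CPM in control (SD, n = 3 each). Both receptors were singled out after their values were seen.

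The table lists 3 transcript models of Cxcl12, and their shares of its estimated counts varied between libraries within each group. NM_001012477 took 67.8, 76.4 and 84.6% in TFEB overexpression libraries 34, 41 and 43, against 71.6, 76.0 and 86.6% in control libraries 35, 36 and 37. NM_021704 took 23.8, 14.8 and 9.73% in TFEB overexpression, against 19.9, 18.4 and 11.2% in control. The share of the first model was highest, and that of the second lowest, in TFEB overexpression library 43 and control library 37. NM_013655 took 5.68 to 8.83% in TFEB overexpression and 2.28 to 8.55% in control. These shares are the quantifier's division of reads among overlapping models, were chosen for description after their values were seen, and were not tested. They are shares of counts, which are not scaled for transcript length. On the TPM scale NM_021704 was above NM_001012477 in TFEB overexpression library 34, at 46.3 against 39.4 TPM. It was below NM_001012477 in the other libraries.

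**Figure D3:**
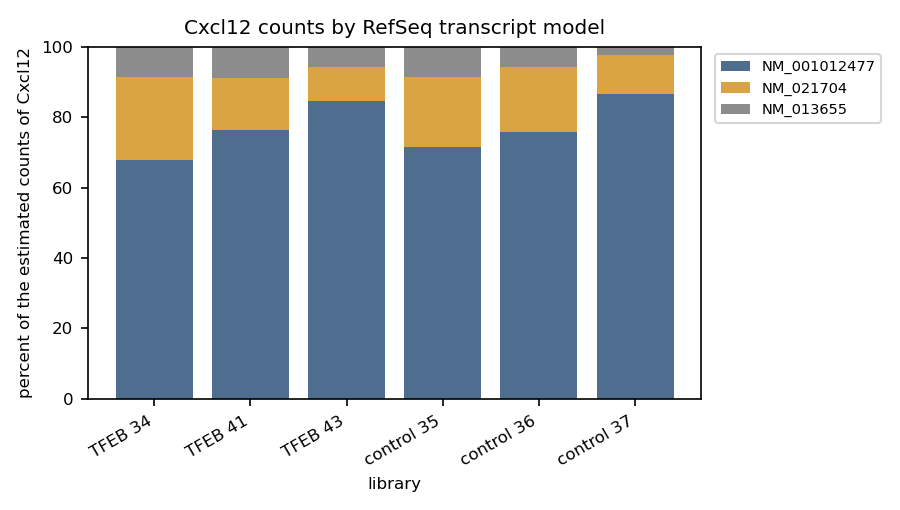
Percent of the estimated counts of Cxcl12 given to each of its 3 RefSeq transcript models, by library, TFEB overexpression left and control right. NM_001012477 holds the largest share of counts everywhere, with 84.6% in TFEB overexpression library 43 and 86.6% in control library 37. Counts are not scaled for transcript length.

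Cxcl14, a homeostatic chemokine of epithelia and stroma, stood at 5.60, 11.1 and 15.5 CPM in TFEB overexpression libraries 34, 41 and 43, against 6.85, 7.09 and 15.3 CPM in control libraries 35, 36 and 37. Cxcl9, an interferon-gamma-induced ligand of Cxcr3, stood at 5.41, 6.004 and 11.6 CPM in TFEB overexpression, against 3.22, 5.69 and 10.1 CPM in control. For both, TFEB overexpression library 43 and control library 37 were the highest, and the log2 fold changes were 0.14 ± 0.46 and 0.27 ± 0.48 (SE). Cxcl10, which shares the receptor with Cxcl9, was lowest in these 2 libraries: 2.35, 1.54 and 0.496 CPM in TFEB overexpression, against 1.14, 2.32 and 0.311 CPM in control, with a log2 fold change of 0.23 ± 0.77. Thus Cxcl9 and Cxcl10, ligands of 1 receptor, were high in different libraries.

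The neutrophil attractants, ligands of Cxcr2, were near the limit of detection. Cxcl1 had 7, 13 and 7 counts in TFEB overexpression libraries 34, 41 and 43, against 12, 5 and 10 in control libraries 35, 36 and 37, and its log2 fold change was 0.03 ± 0.49 (SE). Cxcl2 had 6, 1 and 2 counts in TFEB overexpression and 15, 7 and 1 in control. Cxcl5 had 9, 25 and 9 counts in TFEB overexpression, against 11, 10 and 6 in control. Cxcl2 and Cxcl5 were not tested. Markers of neutrophils were low as well: 9 of 10 had a mean under 1 CPM, and all 10 summed to 5.37 to 12.9 CPM in TFEB overexpression and 7.02 to 9.87 CPM in control. The other marker, Csf3r, averaged 5.97 CPM in TFEB overexpression and 3.94 CPM in control. S100a8, S100a9, Cxcr2, Mmp8, Mmp9 and Ngp had lower means in TFEB overexpression, with overlapping groups. Ly6g, Retnlg and Camp had higher means there, with at most 3 counts in any library.

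Cxcl13, the chemokine that brings Cxcr5-bearing B cells into follicles, was found mostly in 1 control library. It had 2, 8 and 1 counts in TFEB overexpression libraries 34, 41 and 43, against 6, 79 and 1 in control libraries 35, 36 and 37. Control library 36 thus stood at 5.55 CPM, and the other 5 libraries lay at 0.586 CPM or less. Outside control library 36, Cxcl13 had too few counts for the gene to be tested, and it is singled out here after its values were seen. The B cell genes Cd79a and Ms4a1 summed to 1.34, 1.32 and 0.992 CPM in TFEB overexpression, against 0.336, 4.63 and 2.41 CPM in control, and were also highest in library 36. So were Adipoq, an adipocyte hormone, at 29.5 CPM in library 36 and 0 to 11.1 CPM elsewhere, and Upk3b, a mesothelial gene, at 63.1 CPM in library 36 and 0.622 to 34.4 CPM elsewhere. The B cell, adipocyte and mesothelial genes were likewise singled out after their values were seen. The part of B cells, fat or mesothelium in the level of Cxcl13 was not tested.

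**Figure D4:**
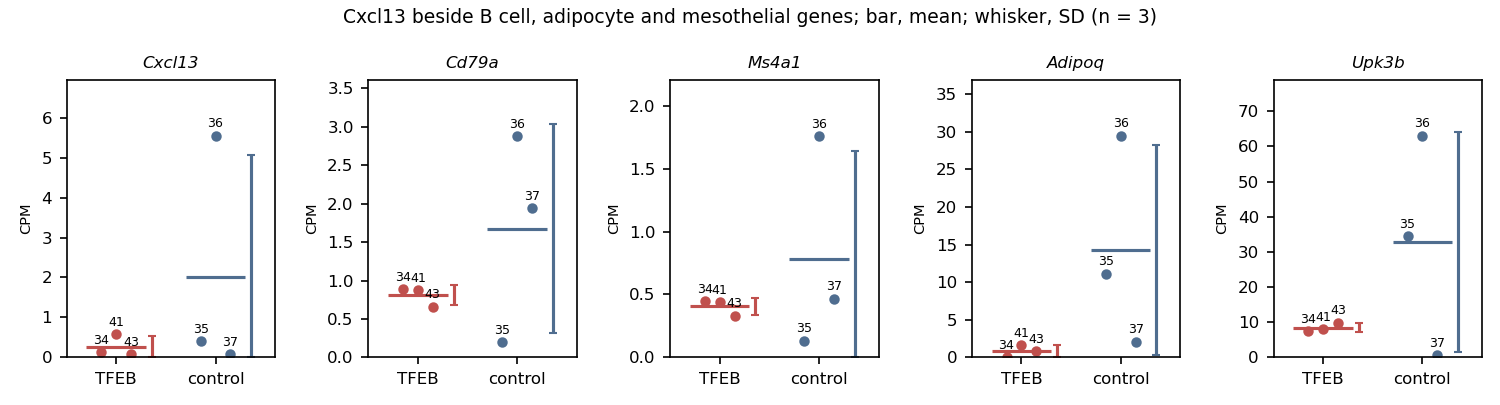
CPM of Cxcl13 beside 2 B cell genes, the adipocyte gene Adipoq and the mesothelial gene Upk3b in each library (points with library numbers), TFEB overexpression left and control right. Bars are group means and whiskers the SD (n = 3, cut at 0); control library 36 is the highest in all 5 panels, with 5.55 CPM for Cxcl13.

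The cytokines of acute inflammation were low and uneven. Il1b, the product of inflammasome-activated myeloid cells, stood at 3.12, 2.49 and 0.661 CPM in TFEB overexpression libraries 34, 41 and 43, against 1.88, 3.30 and 0.544 CPM in control libraries 35, 36 and 37. Il6, which acts through gp130, stood at 1.59, 0.879 and 0.248 CPM in TFEB overexpression, against 0.403, 0.983 and 0.0778 CPM in control. The counts of Il6 were 25, 12 and 3 in TFEB overexpression and 6, 14 and 1 in control. In each group the lowest library was the same for both genes, TFEB overexpression 43 and control 37. The log2 fold changes were 0.14 ± 0.74 for Il1b and 0.89 ± 0.88 for Il6 (SE), with adjusted p-values of 1.00 by edgeR. That of Il6 was 0.21 without TFEB overexpression library 34 and 1.86 without control library 36.

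Tnf, the gene of tumour necrosis factor, had 13, 13 and 7 counts in TFEB overexpression libraries 34, 41 and 43, against 9, 2 and 1 in control libraries 35, 36 and 37. Control library 35 lay within the range of TFEB overexpression, and the gene had too few counts to be tested. Il10, an anti-inflammatory cytokine, had 1 count in all, in control library 36. Osm and Lif belong with Il6 and Il11 to the family that signals through gp130. Osm had 6, 4 and 0 counts in TFEB overexpression and 7, 6 and 2 in control, and Il11, a driver of fibroblast activation, had 12, 2 and 2 counts in TFEB overexpression and 6, 13 and 3 in control. Lif stood at 1.02, 1.17 and 0.661 CPM in TFEB overexpression, against 1.07, 1.33 and 1.17 CPM in control, with a log2 fold change of -0.32 ± 0.33 (SE).

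Il33 and Il18 belong to the interleukin-1 family, and Il33 is held in the nuclei of stromal cells until they are damaged. Il33 stood at 7.45, 17.4 and 6.36 CPM in TFEB overexpression libraries 34, 41 and 43, against 20.0, 14.5 and 5.29 CPM in control libraries 35, 36 and 37. Il18 stood at 1.21, 1.61 and 0.496 CPM in TFEB overexpression, against 2.55, 1.47 and 0.622 CPM in control. Control library 35 was the highest for both and the groups overlapped. The log2 fold changes of -0.35 ± 0.57 and -0.48 ± 0.62 (SE) became 0.07 and 0.08 without that library.

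Csf1 and Il34 are the ligands of Csf1r, the receptor that macrophages need to survive. Csf1 was the most even member, at 73.7, 82.2 and 75.7 CPM in TFEB overexpression libraries 34, 41 and 43, against 70.1, 69.9 and 91.7 CPM in control libraries 35, 36 and 37. The ratio was 1.00 with a 95% interval of 0.801 to 1.247 and an adjusted p of 1.00 by edgeR. Il34 averaged 5.66 ± 2.04 CPM in TFEB overexpression and 5.13 ± 0.913 CPM in control (SD, n = 3 each), with a ratio of 1.11 and an interval of 0.672 to 1.82.

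**Figure D5:**
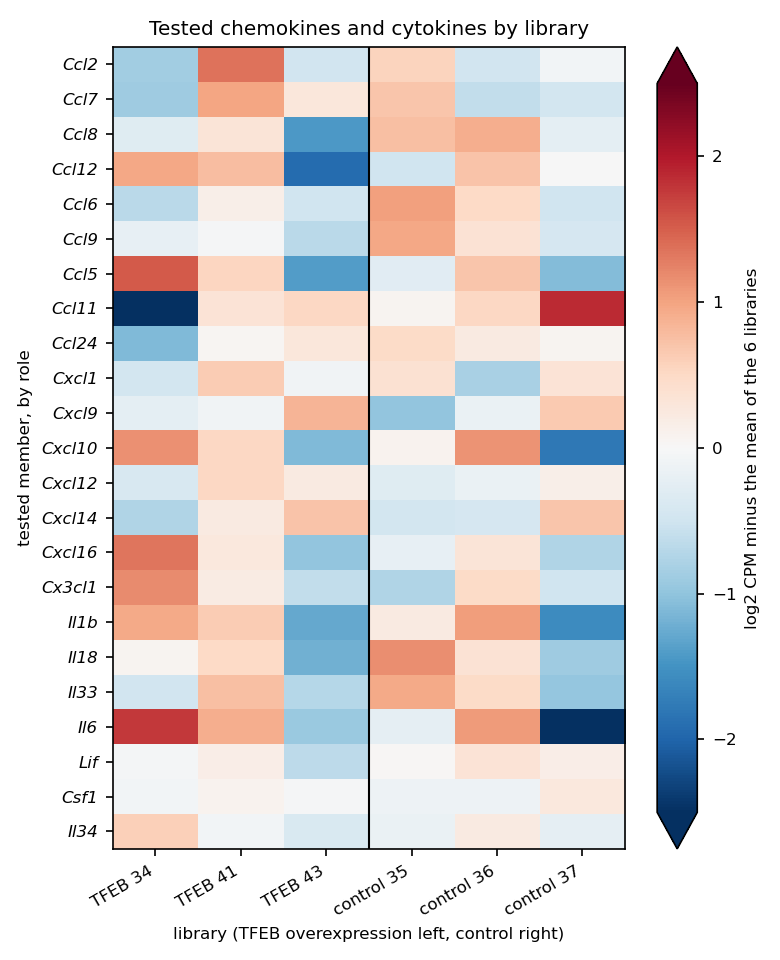
Log2 CPM of the 23 tested members in each library, relative to the mean of the 6 libraries, with TFEB overexpression libraries left and control libraries right of the line; red is higher and blue lower, and colours end at the limits of the scale. Columns TFEB 43 and control 37 are the 2 lowest for 9 members, such as Il6, Il1b and Cxcl10, and the 2 highest for Cxcl9 and Cxcl14.

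A pattern across libraries, chosen for description after the values were seen, crossed the groups. TFEB overexpression library 43 and control library 37 were the 2 lowest libraries for 9 of 23 members (Ccl5, Ccl9, Cxcl10, Cxcl16, Il1b, Il6, Il18, Il33 and Il34), or 39.1%, and for 21.5% of all tested genes. They were the 2 highest for Cxcl9 and Cxcl14, which is 8.70% of the members, and for 19.2% of all tested genes. TFEB overexpression library 34 was the highest for 7 members, or 30.4%, and for 26.8% of all tested genes. Control library 35 was the highest for 5 members, or 21.7%, and for 16.6% of all tested genes. For TFEB overexpression library 41 this was 4 members, or 17.4%, and 8.37% of all tested genes.

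Marker sums followed the same libraries. The 18 macrophage and monocyte markers summed to 1748, 1094 and 627 CPM in TFEB overexpression libraries 34, 41 and 43, against 1066, 1239 and 704.5 CPM in control libraries 35, 36 and 37. The 10 markers of activated fibroblasts and matrix summed to 12690, 5388 and 1056 CPM in TFEB overexpression and 3236, 7505 and 1463 CPM in control. Both sums were lowest in TFEB overexpression library 43 and control library 37, where the cardiomyocyte sum was highest. The 10 fibroblast markers summed to 3962 to 14630 CPM in TFEB overexpression and 5186 to 10480 CPM in control. Not every marker followed its sum, and the examples given here were singled out after their values were seen. Cd163 of the macrophage list stood at 16.3, 15.2 and 27.0 CPM in TFEB overexpression libraries 34, 41 and 43. In control libraries 35, 36 and 37 it stood at 34.8, 25.3 and 34.5 CPM. Mrc1 stood at 58.0, 63.8 and 62.9 CPM, against 74.7, 68.8 and 57.9 CPM. Gsn of the fibroblast list stood at 1117, 1483 and 1900 CPM, against 2642, 1248 and 2478 CPM. None of these lists had a marker at 0 in every library, and the part of cell makeup in the members' values was not tested.

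A few marker sums did not overlap between the groups. Mast cell markers summed to 27.7 to 29.7 CPM in TFEB overexpression and 12.95 to 20.4 CPM in control, and the difference was that of Kit, at 24.1 ± 4.23 CPM in TFEB overexpression and 11.3 ± 2.45 CPM in control (SD, n = 3 each). The other mast cell markers had overlapping groups, and the fitted ratios of the proteases Cpa3, Cma1, Tpsb2 and Mcpt4 were 0.827, 0.721, 0.752 and 1.05. The 8 smooth muscle and pericyte markers summed to 1917 to 2103 CPM in TFEB overexpression and 1431 to 1888 CPM in control. Of these 8, only Acta2, whose promoter drives the Cre, had groups that did not overlap. It stood at 226 ± 59.6 CPM in TFEB overexpression and 114 ± 20.1 CPM in control (SD, n = 3 each). The fitted ratios of Rgs5 and Myh11 were 1.02 and 1.003. Those of Tagln, Cnn1, Abcc9, Pdgfrb and Kcnj8 were 1.49, 1.44, 1.29, 1.23 and 1.16, with overlapping groups. Abcc9, a large part of the sum, averaged 438 ± 170 CPM in TFEB overexpression and 341 ± 100 CPM in control. Neither Kit nor Acta2 passed the test, with adjusted p-values of 1.00 by edgeR, and both were singled out after their values were seen. Of all tested genes, 4.75% had groups that did not overlap. Adipocyte markers summed to 15.3 to 21.1 CPM in TFEB overexpression and 28.5 to 232.7 CPM in control. Among those tested, Adipoq, Plin1, Cidec and Cfd had groups that did not overlap, with fitted ratios of 0.0562, 0.0934, 0.0555 and 0.0557. All were highest in control library 36, and none passed the test. Pparg had overlapping groups, with a fitted ratio of 0.934. These genes too were singled out after their values were seen. The remaining sums overlapped: lymphocytes at 5.62 to 8.40 CPM in TFEB overexpression and 2.42 to 11.3 CPM in control, and dendritic cells at 38.3 to 48.7 CPM in TFEB overexpression and 31.6 to 52.6 CPM in control. Most of the dendritic cell sum was 1 gene, Zbtb46, with a mean of 30.9 CPM over the 6 libraries. Of the 7 dendritic cell markers, 3 had a mean under 1 CPM. Platelet markers summed to 17.8 to 27.2 CPM in TFEB overexpression and 18.2 to 66.6 CPM in control, and mesothelial ones to 34.7 to 46.2 CPM in TFEB overexpression and 6.46 to 225.5 CPM in control. Endothelial markers summed to 1278 to 1403 CPM in TFEB overexpression and 1304 to 1458 CPM in control, and lymphatic endothelial ones to 162.4 to 248.8 CPM in TFEB overexpression and 183.7 to 203.2 CPM in control. Prox1 was the largest part of the lymphatic sum. It stood at 60.8, 102 and 147 CPM in TFEB overexpression libraries 34, 41 and 43, against 93.8, 89.1 and 105 CPM in control libraries 35, 36 and 37. Zbtb46, Abcc9 and Prox1 were also singled out after their values were seen.

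The receptors of these ligands were not called either. Of 23 chemokine receptors listed, 12 were tested, 0 were called, 7 had a fitted value above 0 and the median log2 fold change was 0.12, beside 0.003 over all genes. Xcr1, a receptor of cross-presenting dendritic cells, averaged 0.49 ± 0.211 CPM in TFEB overexpression and 0.947 ± 0.173 CPM in control (SD, n = 3 each). Its counts were 10, 8 and 3 in TFEB overexpression libraries 34, 41 and 43, against 14, 16 and 10 in control libraries 35, 36 and 37. Among the 12 tested chemokine receptors, only Xcr1 had groups that did not overlap, beside 4.75% of all tested genes. Its log2 fold change was -0.92 ± 0.43 (SE) with an adjusted p of 1.00 by edgeR. Cx3cr1, the receptor of fractalkine, averaged 21.7 ± 12.7 CPM in TFEB overexpression and 13.2 ± 7.57 CPM in control (SD, n = 3 each). All 18 cytokine receptors were tested, 0 were called, 11 were above 0 and the median was 0.03. The smallest p-values among them were those of Csf3r, Il18r1 and Csf2ra, with log2 fold changes of 0.60, -0.97 and 0.30.

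Other ligands and the genes that process cytokines gave similar counts. Of 47 other chemokines and cytokines listed, 38 were in the table, 17 were tested, 0 were called and 8 were above 0, with a median of -0.06. Ppbp and Pf4, chemokines stored in platelet granules, had log2 fold changes of -2.12 ± 1.02 and -0.59 ± 0.45 (SE), and Tslp, a cytokine of barrier tissues, 0.76 ± 0.38, with adjusted p-values of 1.00 by edgeR. Ppbp averaged 1.87 ± 1.18 CPM in TFEB overexpression and 8.09 ± 7.81 CPM in control (SD, n = 3 each), with overlapping groups. Of 12 genes for decoys and maturation, 11 were tested, 0 were called and 8 were above 0, with a median of 0.14. The smallest p-values there were those of Dpp4, a protease that trims Cxcl12, at a log2 fold change of -0.70, and of Gsdmd and Casp1, which release and cut interleukin-1 beta, at 0.25 and 0.24.

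All 30 genes listed for NF-kB signalling and its targets were tested, 0 were called, 21 were above 0 and the median log2 fold change was 0.08. In this list 2 genes, Nfkbia and Sele, had unadjusted p-values under 0.05, and the same 2 had groups that did not overlap, beside 1.21% and 4.75% of all tested genes. Nfkbia, the inhibitor that holds NF-kB in the cytoplasm and is itself a target, stood at 28.2, 28.5 and 24.0 CPM in TFEB overexpression libraries 34, 41 and 43, against 38.2, 30.4 and 36.6 CPM in control libraries 35, 36 and 37. Sele, the endothelial selectin on which leukocytes roll, stood at 1.91, 3.95 and 2.15 CPM in TFEB overexpression, against 0.94, 1.33 and 1.71 CPM in control. Every TFEB overexpression library was below every control library for Nfkbia and above every control library for Sele. The log2 fold changes were -0.38 ± 0.13 and 1.007 ± 0.40 (SE), with unadjusted p-values of 0.0216 and 0.0434 and adjusted p-values of 1.00 by edgeR, so neither passed the test. Relb, a subunit of the factor, had a log2 fold change of 0.29 ± 0.16. Of 18 interferon targets, 17 were tested, 0 were called and 6 were above 0, with a median of -0.07. Gbp2, Rsad2 and Irf8 had the smallest p-values there, with log2 fold changes of -0.25, -0.45 and 0.39.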

How the data were processed

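RNA of 6 mouse heart libraries was sequenced, 3 of TFEB overexpression and 3 of control. Per the submitters' processing notes, which give no roles, DESeq2 1.4.5, RSEM 1.3.1, Bowtie2 2.3.4.3 and HISAT2 2.1.0 were used with build mm10. The sources used here do not give the strand setting, annotation release or filters. Per the file headers, the authors deposited an estimated count and a TPM per transcript, the TPM scaled for length and depth, for 62498 transcripts.

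Estimated counts were summed per gene over all transcripts and rounded, and TPM was summed likewise, for 17524 genes. Symbols came from the RefSeq table of GRCm38.p6, and 117 genes without a symbol held 0.51% of counts. CPM is the count scaled by library total and TMM factor. TFEB overexpression was compared with control by the quasi-likelihood test of edgeR 4.0.16 (filterByExpr, TMM, glmQLFTest, two-sided) in R 4.3.3 on 13565 genes, with Benjamini-Hochberg adjustment over them and a threshold of 0.05. The SE was taken from the log2 fold change and its F statistic, and intervals are at 95%.

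The members, lists and alternatives were chosen with earlier results of these data known. By rule, values per library are given for the 12 tested members with the smallest p and for Ccl2, Cxcl12, Il1b, Il6, Tnf, Il11, Il33 and Cxcl14, counts for members not tested or under 1 CPM on average, the 3 tested genes with the smallest p of each related list, the sum of each marker list, and Tfeb. One receptor that the rule names is not reported here. Genes and patterns beyond the rule are named as chosen after their values were seen, as are the values per library of Csf1, Cxcl9 and Cxcl10. The alternatives were RLE scaling, DESeq2 1.42.0, voom and trend of limma 3.58.1 (the second on log2 TPM with pseudocounts of 1 and 0.1, at least 1 TPM in 3 libraries), no filter, at least 10 counts in 3 libraries, and leaving out each library.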

Additional observations from a re-analysis of the deposited data

How the results depend on the processing

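Under 13 alternatives no member was called, and the lowest adjusted p of a member in any edgeR, limma or DESeq2 fit was 0.792. DESeq2 called 1 gene over all genes, against 0 by edgeR. Ccl6, Ccl8, Ccl9, Ccl11, Ccl24, Cx3cl1, Cxcl12 and Il6 kept their direction in every alternative, with Cx3cl1 at 0.0038 without TFEB overexpression library 34, and Lif did so in those that tested it, which leaves out the fits on log2 TPM. The log2 fold change of Csf1, next to 0, changed sign to 0.0040 with RLE scaling, 0.0042 with DESeq2, 0.0086 with voom, 0.0032 without a filter, 0.034 on log2(TPM + 1) and 0.035 on log2(TPM + 0.1). That of Ccl2 became -0.016 with voom, and that of Ccl12 became -0.011 with voom, -0.019 on log2(TPM + 1) and -0.11 on log2(TPM + 0.1). The cause was not tested.

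With each library left out in turn, members above 0 numbered 9 to 14, their median ran from -0.10 to 0.13, and 0 to 4 of 23 had groups that did not overlap, or 0.0 to 17.4%, against 8.32 to 20.4% of all genes tested in these fits. Log2 fold changes ran from -0.15 to 0.72 for Ccl12, -0.71 to 0.66 for Ccl2, -0.065 to 1.29 for Ccl5, -0.18 to 0.85 for Ccl7, -0.067 to 0.14 for Csf1, -0.32 to 0.25 for Cxcl1, -0.30 to 1.00 for Cxcl10, -0.22 to 0.62 for Cxcl14, -0.074 to 1.05 for Cxcl16, -0.15 to 0.78 for Cxcl9, -0.85 to 0.078 for Il18, -0.29 to 0.78 for Il1b, -0.92 to 0.069 for Il33 and -0.18 to 0.34 for Il34. No paired analysis was possible because the groups share no replicate numbers. The 10 untested members lacked enough counts in enough libraries to pass the filter, so no fold change is given for them.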
